A study of Mus musculus with 10 samples.

Results

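Heat shock proteins and other molecular chaperones were followed as a set of 46 named genes, which are 46 of the 24982 gene rows in the deposited count table. The members were taken by name: the heat shock factors Hsf1 and Hsf2, the HSP90, HSP70 and HSP40 families with several cochaperones, 2 small heat shock proteins with Bag3, 7 subunits of the cytosolic chaperonin CCT, and the chaperones of the mitochondrion and of the endoplasmic reticulum (ER). The table lists symbols in capitals, as HSPA1A, HSP90AA1 or DNAJB1. All 46 were found in it, and all 46 were above the low-count filter. RNA of the micro-dissected dentate gyrus, the hippocampal field of granule neurons, was sequenced in bulk from 5 wild-type and 5 knockout males of the C57BL/6 background at 10 weeks of age, with 1 library for each of the 10 mice. The knockout was global, in the whole body rather than in 1 cell type, and hit Fndc5, the gene of the membrane protein from which irisin is cleaved. The labels do not name the allele, the deleted exons, the litters or any treatment. The comparison asks whether the chaperone transcripts of this tissue differ between the genotypes.

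Chaperones bind unfolded or partly folded proteins and use cycles of ATP binding and hydrolysis to let them fold. HSP70 proteins take up short exposed stretches of a client, HSP40 proteins (the DnaJ family) bring clients to HSP70 and start its ATPase, and HSP90 proteins act later on kinases, receptors and other near-folded clients. CCT is a ring that encloses newly made actin, tubulin and other proteins. When unfolded proteins build up in the cytosol, the transcription factor HSF1 is released from chaperones, forms trimers and switches on heat shock genes through heat shock elements, repeats of a short unit in alternating orientation. In the ER the same task falls to Hspa5 (also called BiP) and Hsp90b1 (GRP94), and their genes are switched on through ER stress response elements, which bind ATF6 and related factors. Neurons carry a large constitutive stock of these proteins, and many kinds of neuron are known for a weak inducible heat shock response.

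The 2 regulatory elements are shown here because targets of HSF1 and genes of the ER are each compared below. The classes of the members follow protein family or compartment, not these elements. RefSeq promoters of GRCm38.p6, from 250 bases before to 50 bases after each gene's start, were at hand for 38 of the 46 members. Some genes have several promoters. Members were counted by gene, with a match in any of its promoters, whereas the shares of all promoters count each promoter. The member shares are therefore not directly comparable with the shares of all promoters. A heat shock element of 3 units, spelled GAANNTTCNNGAA or TTCNNGAANNTTC and searched on both strands, was found in 5 of these 38 (13.2%) and in 0.603% of all 32851 promoters. The 5 genes are Hspd1, Hspe1, Hsph1, Chordc1 and Dnajb6. The shorter 2-unit form, GAANNTTC or TTCNNGAA, lies inside every 3-unit match and is common, with 14 of 38 members (36.8%) against 15.1% of all promoters. The ER stress response element, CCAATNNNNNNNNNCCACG or its reverse complement, was found in 3 of 5 matched ER members and in 0.119% of all promoters. The related short form ERSE-II, ATTGGNCCACG, was found in 1 of the 5 and in 0.0365% of all promoters. In the stretches below, written 5′ to 3′ on the gene's own strand, the capitals mark the matched letters. Overlapping matches were joined, so the capitals of Hspe1, Hspd1 and Chordc1 run longer than a single 3-unit match.
Hspe1, chr1:55088053-55088082, plus strand: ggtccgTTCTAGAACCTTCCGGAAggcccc
Hspd1, chr1:55088053-55088082, minus strand: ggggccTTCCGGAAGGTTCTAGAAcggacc
Hsph1, chr5:149636280-149636309, minus strand: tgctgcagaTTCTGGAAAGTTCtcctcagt
Chordc1, chr9:18292259-18292288, plus strand: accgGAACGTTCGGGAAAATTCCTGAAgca
Dnajb6, chr5:29735843-29735872, plus strand: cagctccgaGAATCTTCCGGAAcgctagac
Hspa1a, chr17:34972242-34972271, minus strand (2-unit form): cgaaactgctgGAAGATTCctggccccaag
Hspa1b, chr17:34959324-34959353, minus strand (2-unit form): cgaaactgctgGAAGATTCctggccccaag
Hspa5, chr2:34772019-34772048, plus strand: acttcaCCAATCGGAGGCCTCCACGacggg
Hsp90b1, chr10:86705633-86705662, minus strand: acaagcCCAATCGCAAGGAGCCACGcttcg
Dnajc3, chr14:118937821-118937850, plus strand: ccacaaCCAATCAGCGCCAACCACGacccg
Dnajb11, chr16:22857842-22857871, plus strand (ERSE-II): cccggcggcgATTGGCCCACGcctggctgc
Hspe1 and Hspd1, the mitochondrial chaperonin cap and ring, lie head to head, and their lines are the same stretch of DNA read from either strand. The promoters of Hspa1a and Hspa1b, the classical heat-inducible HSP70 pair, differ at 4 of 300 bases (98.7% identical) and hold the same 2-unit match. Each match describes letters in these windows and says nothing of binding in this tissue.

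The libraries held 26226375 to 43802079 counts. Fndc5 (chr4:129136999-129144593, plus strand, GRCm38, GENCODE M21) stood at 78.9, 69.2, 72.2, 80.3 and 76.1 counts-per-million units (CPM, scaled to library size) in wild-type mice 1 to 5 and at 50.9, 45.4, 53.9, 49.7 and 56.7 CPM in knockout mice 1 to 5. Every knockout was below every wild type, with means of 75.3 ± 4.60 and 51.3 ± 4.27 CPM (SD, n = 5 each). Its log2 fold change, knockout over wild type as everywhere below, was -0.55 (SE 0.057, edgeR quasi-likelihood test, Benjamini-Hochberg adjusted p 0.000495). The count covers the whole gene, deleted part included, so the reads left in the knockouts cannot be placed on exons. No other gene among the 14867 tested passed the threshold of 0.05, which makes 0.00673% called. Markers of the labelled tissue were high, with 10 granule neuron genes such as Prox1 and Calb1 summing to 2072 to 2382 CPM in wild types and 2199 to 2398 CPM in knockouts. Of 6 choroid plexus markers, Kl and Ttr had wild-type means of 29.2 and 4.56 CPM, while Aqp1, Clic6, Kcne2 and Folr1 were at 0.545, 0.391, 0.129 and 0.0336 CPM. Markers of other cells and fields were also read in wild types. Their sums were 5268 to 6054 CPM for astrocytes, 1481 to 1714 CPM for oligodendrocytes and 566 to 688 CPM for interneurons. Those of CA2 and CA3 were 420 to 433 CPM and those of CA1 76.6 to 93.9 CPM. Such sums depend on the genes listed.

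No chaperone gene passed the test between genotypes. In the edgeR quasi-likelihood fit 0 of 46 members passed over all genes, and the smallest adjusted p was 0.788. DESeq2 and limma-voom likewise called 0 of 46. At an unadjusted p under 0.05, 7 members were lower in the knockout (15.2% of the members, against 3.75% of all genes tested) and 1 was higher. The 7 were Hspa4l, Hsp90aa1, Dnaja1, Hspe1, Hspd1, Hspa4 and Dnajb11, and the 1 higher was Hspa2. Their number depends on single mice, since 4 were lower without wild-type mouse 2 (2.13% of all genes in that fit) and 14 without wild-type mouse 4 or mouse 5 (4.26% and 5.12% of all genes). In 0 of the 46 were all 5 knockouts below all 5 wild types, a separation that 0.437% of all genes showed. In bulk tissue, fewer cells of a type and less RNA per cell cannot be told apart.

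The signs of the small differences were uneven. The log2 fold change was below 0 for 38 of 46 members (82.6%, against 49.3% of all genes tested), 36 with upper-quartile scaling and 35 with a correction for GC content and length. The members' median was -0.068 and the median of all genes 0.002. Leaving out single mice moved it between -0.038 (without wild-type mouse 2) and -0.095 (without wild-type mouse 4). Over all genes at an unadjusted p under 0.05, 557 were lower and 378 higher with the TMM scaling, whereas 405 were lower and 546 higher with upper-quartile scaling. With the latter 6 members were lower and 1 was higher at that p. The members were measured in the same 10 libraries and are not independent of one another, so the shares are given as a description.

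**Figure D1:**
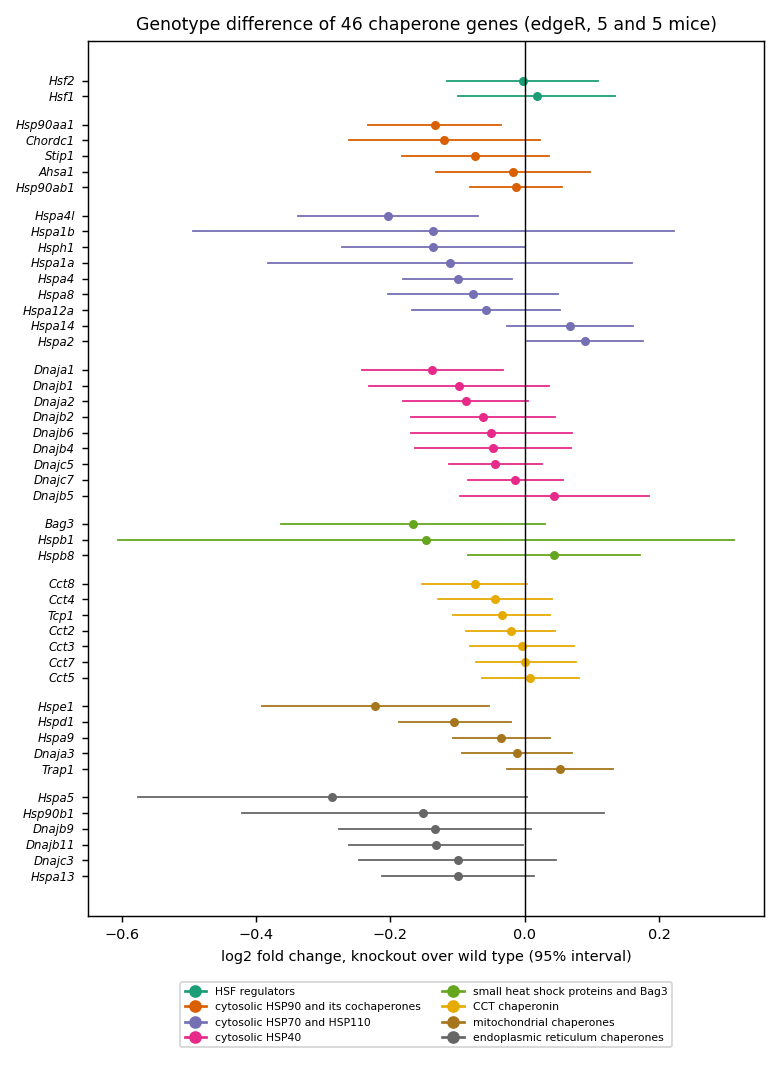
Log2 fold change (x axis, knockout over wild type) of each of the 46 members from the edgeR fit of 5 and 5 mice, with bars for the 95% interval and colours for the 8 classes. Of the 46 points 38 lie below 0, and the widest bars belong to Hspb1, Hspa1b, Hspa5, Hspa1a and Hsp90b1.

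The intervals bound what these libraries could have missed. A change of 1.25-fold in either direction lay outside the 95% interval of 38 of 46 members (74.1% of all genes), 1.5-fold outside that of 45 (90.1%) and 2-fold outside that of 46 (98.5%). Its median reach to either side was 0.11 on the log2 scale for the members, with a range of 0.07 to 0.46, and 0.14 for all genes. Hspb1, the small heat shock protein HSP27, had the widest interval, from -0.61 to 0.31, at 25 to 56 counts per library.

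The members covered a wide range of levels. In wild types the HSP90 gene Hsp90ab1 was highest at 609 ± 15.6 CPM per kilobase of exon (RPKM, SD, n = 5), rank 12 of the 24498 rows with a known exon length. Hspa8, the constitutive cytosolic HSP70, followed at 192 ± 18.4 RPKM (rank 97), then Hsp90aa1 at 118 ± 8.91 RPKM (rank 212) and Hsp90b1 at 104 ± 24.4 RPKM (rank 251). At the other end were Hspa1b at 2.86 ± 0.858 RPKM, Hsf2 at 2.82 ± 0.123 RPKM, Hspa1a at 1.79 ± 0.244 RPKM and Hspb1 at 1.36 ± 0.361 RPKM. Other heat-inducible members were higher, such as Hsph1 at 57.9 RPKM and Dnajb1 at 11.7 RPKM. Within the CCT ring, whose 8 different subunits stand once in each ring, the 7 listed genes ranged from 16.4 RPKM for Cct3 to 67.6 RPKM for Cct5. Levels per kilobase depend on the exon length used, which here is the union of all annotated exons.

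**Figure D2:**
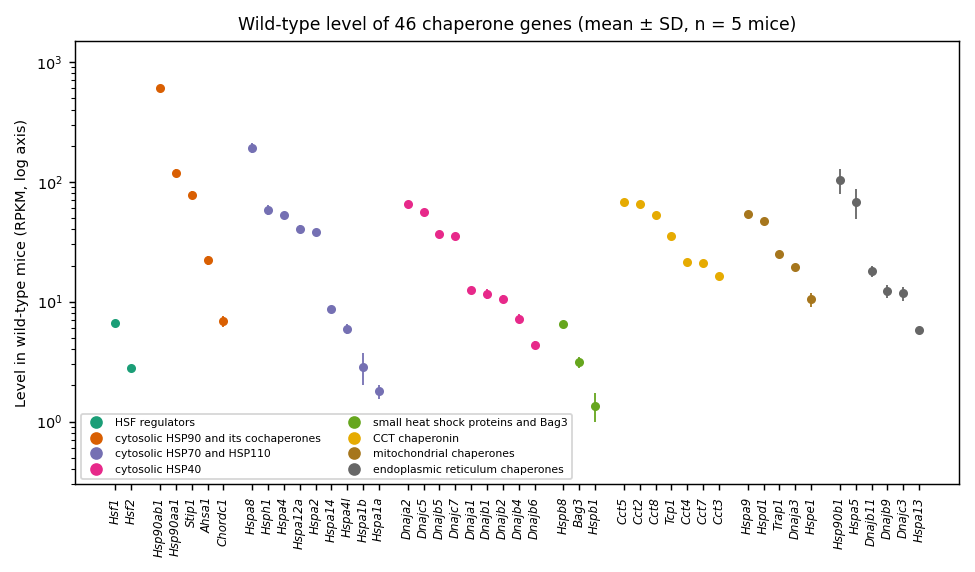
Wild-type level of each of the 46 members in RPKM (log axis), as mean ± SD of 5 mice, grouped by class and ordered by level within each class. Hsp90ab1 is highest and Hspb1 lowest, and the longest error bars relative to the mean are those of Hspa1b, Hspa5, Hspb1 and Hsp90b1.

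Reads of several members can match copies elsewhere in the genome, which bears on their counts because the treatment of multiply mapped reads is not known. Of all 75-base windows of the longest transcript, 68.0% also occurred in another annotated gene for Hspa8, 55.8% for Hspa1b, 54.2% for Hspa1a, 53.1% for Hsp90aa1, 47.3% for Hspb1, 33.7% for Hspd1, 33.3% for Dnajb6 and 23.7% for Hspe1. For Hspa1a and Hspa1b the other gene is chiefly the partner, so the split of reads between them is uncertain. The others share windows with loci such as Hsp25-ps1 for Hspb1 and Hspd1-ps3 for Hspd1. The CCT genes, Hspa4, Hsph1, Hspa5, Hspa13, Dnajb11 and Dnajc3 share 0%, and Hsp90ab1 shares 0.736%.

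The 2 heat shock factors did not differ between genotypes beyond their spread. Hsf1, the master regulator of the response, stood at 48.7, 45.0, 48.3, 45.8 and 49.4 CPM in wild-type mice 1 to 5 and at 49.8, 43.1, 51.1, 51.9 and 44.03 CPM in knockouts 1 to 5. The groups overlapped, with 3 knockouts above the highest wild type and 2 below the lowest, and the log2 fold change was 0.02 (95% interval -0.10 to 0.14). Hsf2, a related factor that can pair with HSF1, had 27.9, 26.6, 28.0, 27.6 and 25.2 CPM in wild types and 26.2, 24.4, 28.7, 28.3 and 27.5 CPM in knockouts. Here too the groups overlapped (log2 fold change -0.003, 95% interval -0.12 to 0.11), and the sign turned with upper-quartile scaling (0.007) and with the GC and length correction (0.097).

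Of the cytosolic HSP90 class, 5 of 5 members had log2 fold changes below 0, with a median of -0.07, and 0 passed. The median was below 0 in every alternative run but only -0.02 with the GC and length correction and -0.04 without wild-type mouse 2, and it was -0.11 without knockout mouse 4. Hsp90aa1, the inducible HSP90, had 489, 499, 474, 439.7 and 415 CPM in wild types 1 to 5 and 419, 421, 402, 432 and 438 CPM in knockouts 1 to 5. Wild-type mice 1 to 4 were above every knockout, mouse 4 by a narrow margin, whereas mouse 5 lay among the knockouts. Its means were 463 ± 35.0 and 422 ± 14.0 CPM (SD, n = 5), with a log2 fold change of -0.13 (SE 0.047, 95% interval -0.23 to -0.04, edgeR adjusted p 0.788). Hsp90ab1, the constitutive HSP90, had 1877, 1846, 1844, 1800.3 and 1757 CPM in wild types and 1808, 1729, 1771, 1862 and 1872 CPM in knockouts. These ranges coincided nearly throughout, and the log2 fold change was -0.01 with a 95% interval of -0.08 to 0.06.

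Chordc1, a cochaperone of HSP90, had 50.2, 57.3, 57.4, 46.4 and 45.8 CPM in wild types and 43.1, 47.5, 46.7, 51.7 and 48.0 CPM in knockouts. Wild-type mice 2 and 3 were again the highest of their group, and the groups overlapped (log2 fold change -0.12, and -0.02 after the GC and length correction). Stip1, also called HOP, which joins HSP70 to HSP90, was at -0.07 and Ahsa1, the activator of the HSP90 ATPase, at -0.02. The sign for Ahsa1 turned without wild-type mouse 3 (0.025).

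In the cytosolic HSP70 and HSP110 class 7 of 9 members were below 0 (median -0.10, and -0.09 with either upper-quartile scaling or the GC and length correction), and 0 passed. The median was -0.055 without knockout mouse 3 and -0.065 without wild-type mouse 1. Hspa8 had 852, 889, 902, 730.2 and 752 CPM in wild types 1 to 5 and 756, 749.9, 735, 867 and 805 CPM in knockouts 1 to 5. The wild types fell into high values in mice 1 to 3 and low values in mice 4 and 5, and all knockouts lay within their range. Its log2 fold change was -0.08 (95% interval -0.20 to 0.05), or -0.04 without wild-type mouse 3 and -0.12 without wild-type mouse 4.

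The inducible pair was sparse. Hspa1a had 5.66, 5.69, 5.57, 4.01 and 5.57 CPM in wild types and 5.53, 4.73, 3.61, 5.73 and 5.04 CPM in knockouts. Wild-type mouse 4 and knockout mouse 3 were low, the others lay between 4.73 and 5.73 CPM, and the log2 fold change was -0.11 (95% interval -0.38 to 0.16). Without knockout mouse 3 it was -0.01, and without wild-type mouse 4 it was -0.20. Hspa1b had 10.4, 9.46, 9.35, 4.92 and 5.98 CPM in wild types and 7.44, 6.54, 6.08, 8.45 and 8.35 CPM in knockouts. The highest wild type had over double the level of the lowest, all 5 knockouts lay between these extremes, and the log2 fold change was -0.14 (95% interval -0.49 to 0.22). Leaving out wild-type mouse 4 gave -0.27 and leaving out wild-type mouse 1 gave -0.03.

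The HSP110 relatives, which act as nucleotide exchange factors for HSP70, gave the lowest p of the set. Hspa4l had 74.8, 78.8, 70.8, 61.5 and 64.7 CPM in wild types 1 to 5 and 58.9, 62.5, 55.2, 63.7 and 64.3 CPM in knockouts 1 to 5. Wild-type mouse 4 lay among the knockouts, mouse 5 just above them, and 2 knockouts lay below the lowest wild type. Group means were 70.1 ± 7.11 and 60.9 ± 3.85 CPM, which gave a log2 fold change of -0.20 (SE 0.063, 95% interval -0.34 to -0.07), and the edgeR adjusted p was 0.788 (unadjusted 0.00518). After the GC and length correction its log2 fold change was -0.13. Hspa4 had 293, 315, 306, 284 and 274 CPM in wild types and 272, 277, 269, 276 and 279.6 CPM in knockouts. The knockouts were tightly grouped at the level of the lowest wild type (log2 fold change -0.10, SE 0.038, unadjusted p 0.019, edgeR adjusted p 0.788).

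Hsph1, the third HSP110, was at -0.14 (95% interval -0.27 to 0.001) and Hspa12a, a divergent HSP70 of the brain, at -0.06. Hspa2 was at 0.09 (95% interval 0.004 to 0.18), with 4 of 5 knockouts above the highest wild type. Hspa14, an HSP70 tied to the ribosome, was at 0.07, likewise with 4 of 5 knockouts above the highest wild type. Both stayed above 0 in every alternative run. The share of all genes with 4 of 5 knockouts above the wild types is not given here, so these counts only describe the 2 genes.

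The HSP40 class had 8 of 9 members below 0 (median -0.05, and -0.04 with upper-quartile scaling), and 0 passed. Dnaja1, a farnesylated partner of HSP70, had 110.4, 116, 111, 99.3 and 98.4 CPM in wild types 1 to 5 and 93.1, 92.4, 99.2, 101 and 102 CPM in knockouts 1 to 5. Wild-type mice 1 to 3 stood above every knockout and wild-type mice 4 and 5 among them. Its log2 fold change was -0.14 (SE 0.049, edgeR adjusted p 0.788), and -0.08 after the GC and length correction, which is smaller by over 1.5 times. Dnaja2, the most abundant HSP40 per kilobase at 65.3 RPKM, had 190.4, 209, 204, 189 and 179 CPM in wild types and 174, 179.8, 182, 188 and 191 CPM in knockouts. Wild-type mice 2 and 3 were above every knockout, the other wild types lay among the knockouts, and 1 knockout was below every wild type, with a log2 fold change of -0.09 (95% interval -0.18 to 0.005).

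Dnajb1, the inducible HSP40 that works with Hspa1a, was at -0.10 (95% interval -0.23 to 0.04). Dnajb2, Dnajb6, Dnajb4, Dnajc5 (the synaptic vesicle protein CSP) and Dnajc7 were at -0.06, -0.05, -0.05, -0.04 and -0.01, and Dnajb5 was at 0.04. For Dnajc5, 4 of 5 knockouts lay below the lowest wild type, and the share of all genes showing this is not given here. The signs of Dnajb4, Dnajc7 and Dnajb5 turned in at least 1 alternative each, Dnajb5 to -0.03 without knockout mouse 3.

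Of the small heat shock proteins and their partner Bag3, 2 of 3 were below 0 (median -0.15, and -0.04 without wild-type mouse 2) and 0 passed. Bag3, which links HSP70 to autophagy of misfolded proteins, had 8.42, 7.23, 7.23, 7.85 and 9.10 CPM in wild types 1 to 5 and 6.64, 7.59, 6.36, 8.18 and 6.66 CPM in knockouts 1 to 5. Of the knockouts 3 lay below every wild type and 2 among them (log2 fold change -0.17, 95% interval -0.36 to 0.03). Hspb8, which forms a complex with BAG3, had 11.9, 12.9, 11.8, 13.7 and 12.7 CPM in wild types and 13.0, 12.8, 12.7, 13.3 and 13.1 CPM in knockouts. The knockouts lay inside the wild-type range, at a log2 fold change of 0.04. Hspb1 was at -0.15 (95% interval -0.61 to 0.31), or -0.04 without wild-type mouse 2 and -0.34 without knockout mouse 4.

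The CCT subunits differed little. Of 7 subunits 5 were below 0 with a median of -0.02, a direction that turned with the GC and length correction (median 0.002, with 3 of 7 below 0), and 0 passed. Cct8 had 159.6, 164, 177, 161 and 156 CPM in wild types 1 to 5 and 157, 153, 156, 153 and 157 CPM in knockouts 1 to 5. Wild-type mouse 3 was highest, and the lowest wild type lay among the knockouts (log2 fold change -0.07, 95% interval -0.15 to 0.004). Cct4 had 87.3, 92.5, 95.5, 92.1 and 83.9 CPM in wild types and 85.7, 86.8, 87.2, 90.9 and 87.4 CPM in knockouts, all of the latter inside the wild-type range. Its log2 fold change was -0.04. Cct5 had 188, 188, 193, 187 and 179 CPM in wild types and 184, 182, 195, 192 and 188 CPM in knockouts. These overlapped nearly completely, at a log2 fold change of 0.01 with a 95% interval of -0.06 to 0.08. Tcp1, Cct2, Cct3 and Cct7 were at -0.03, -0.02, -0.004 and 0.001.

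The mitochondrial class had 4 of 5 members below 0 (median -0.04, and -0.02 after the GC and length correction), and 0 passed. Hspe1, the cap of the mitochondrial chaperonin, had 15.8, 17.7, 16.9, 13.7 and 13.1 CPM in wild types 1 to 5 and 13.3, 13.5, 13.3, 13.8 and 12.4 CPM in knockouts 1 to 5. Wild-type mice 1 to 3 were above every knockout, and wild-type mice 4 and 5 were at the knockout level. Its log2 fold change came to -0.22 (SE 0.080, 95% interval -0.39 to -0.05, edgeR adjusted p 0.788). Hspd1, the ring that Hspe1 closes and its head-to-head neighbour in the sequences above, had 125, 133, 128, 123 and 116 CPM in wild types and 112, 116, 115, 119.9 and 119 CPM in knockouts. The order of the wild-type mice was the same for both genes, from mouse 2 at the top through mice 3, 1 and 4 to mouse 5. For Hspd1 the log2 fold change was -0.11 (SE 0.040, unadjusted p 0.0173, edgeR adjusted p 0.788).

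Hspa9, the mitochondrial HSP70 that draws proteins through the inner membrane, had 222, 240.2, 233, 236 and 229.8 CPM in wild types and 224, 219.7, 234, 223 and 233 CPM in knockouts. The groups overlapped, and the log2 fold change was -0.04 (95% interval -0.11 to 0.04). Trap1, the mitochondrial HSP90, was at 0.05 (95% interval -0.03 to 0.13) with 3 of 5 knockouts above the highest wild type, and the HSP40 Dnaja3 was at -0.01.

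All 6 ER chaperones had log2 fold changes below 0 in every alternative run, with a median of -0.13, and 0 passed. The median was -0.07 without wild-type mouse 2 and -0.09 after the GC and length correction. Hspa5, the ER HSP70 and sensor of unfolded protein, had 309, 395, 322, 191 and 221 CPM in wild types 1 to 5 and 220.4, 233, 233, 252 and 242 CPM in knockouts 1 to 5. The highest wild type was at over double the lowest, and all knockouts lay together in the lower part of the wild-type range, with means of 288 ± 82.0 and 236 ± 11.6 CPM. On the log2 scale the difference was -0.29 (SE 0.14, 95% interval -0.58 to 0.003, unadjusted p 0.052, edgeR adjusted p 0.789). It was -0.15 without wild-type mouse 2 and -0.40 without wild-type mouse 4.

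Hsp90b1, the ER HSP90, had 375, 540.2, 506, 329 and 338 CPM in wild types and 328, 406, 319.8, 454 and 374 CPM in knockouts. Wild-type mice 2 and 3 were the highest of all 10, and knockout mouse 4 came next (log2 fold change -0.15, 95% interval -0.42 to 0.12). Its value was -0.04 without wild-type mouse 2 and -0.23 without knockout mouse 4. Dnajb11, an HSP40 partner of Hspa5 in the ER, had 57.3, 65.9, 62.1, 50.8 and 53.1 CPM in wild types and 51.3, 50.7, 53.7, 54.2 and 54.3 CPM in knockouts. Wild-type mice 1 to 3 were above every knockout, and the log2 fold change was -0.13 (SE 0.061, unadjusted p 0.0452, edgeR adjusted p 0.788), or -0.08 without wild-type mouse 2. The ER HSP40 genes Dnajb9 and Dnajc3 were at -0.13 and -0.10, and Hspa13, an HSP70 of the microsomes, at -0.10. Without wild-type mouse 2 Dnajb9 was at -0.065 and Dnajc3 at -0.03, and with the GC and length correction Hspa13 was at -0.04.

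The ER chaperones moved together from mouse to mouse within the wild types. The mean of the 6 genes, as log2 CPM minus the wild-type mean, was 0.01, 0.28, 0.13, -0.24 and -0.18 in wild-type mice 1 to 5 and -0.21, -0.11, -0.17, -0.09 and -0.09 in knockouts 1 to 5. The wild-type SD of 0.22 exceeded the difference of -0.13 between the genotype means, and the knockout SD was 0.05. Wild-type mouse 2 was the highest of its group for 5 of 6 genes and mouse 3 for 1, while mouse 4 was the lowest for 4 and mouse 5 for 2. All 5 knockouts lay between the wild-type extremes.

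A list of 19 further ER folding and stress genes showed a like order of the wild types. Its mean was 0.03, 0.17, 0.13, -0.23 and -0.11 in wild-type mice 1 to 5 and -0.13, -0.09, -0.06, -0.02 and -0.09 in knockouts 1 to 5. Wild-type mouse 2 was highest for 12 of 19 genes and mouse 4 lowest for 14. Against the knockout, 16 of 19 were below 0 (median -0.10, and -0.05 with 14 of 19 without wild-type mouse 2), 0 passed in edgeR, and 0 had an unadjusted p under 0.05. Canx, the lectin chaperone calnexin, had 363, 423, 392, 339.6 and 337 CPM in wild types and 329, 362, 302, 362 and 339.8 CPM in knockouts, which overlapped at a log2 fold change of -0.13. Hyou1, an HSP110 of the ER, was likewise at -0.13. For comparison, the wild-type means of the lists of other cytosolic and of other mitochondrial genes described last ranged from -0.03 to 0.04 each. The order was not particular to the ER. Wild-type mice 1 to 3 were also above mice 4 and 5 in the means of the HSP90, HSP70, HSP40 and mitochondrial classes. Those of the HSP70 class ranged from -0.19 to 0.12 and those of the HSP90 class from -0.10 to 0.10. The CCT, small heat shock protein and HSF classes did not have this order.

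**Figure D3:**
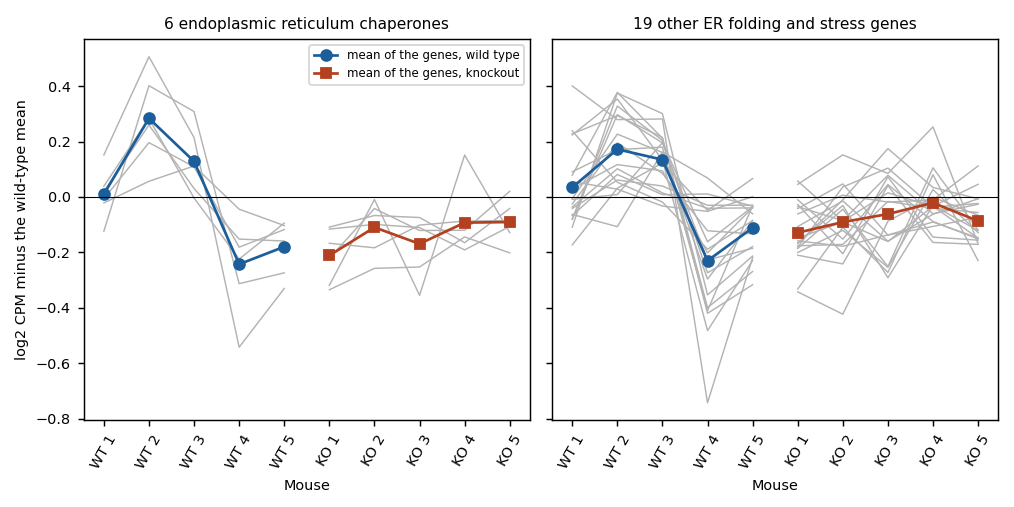
Log2 CPM minus the gene's wild-type mean (y axis) in each of the 10 mice (x axis) for the 6 ER chaperones (left) and 19 other ER folding and stress genes (right), with grey lines for single genes (the mice have no order) and markers for the mean of the genes in wild types and knockouts. Wild-type mouse 2 has the highest mean in both panels (0.28 and 0.17) and wild-type mouse 4 the lowest (-0.24 and -0.23), and the knockout means lie between -0.21 and -0.02.

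Other measures of the same mice are set beside this order. The ribosomal RNA precursor Rn45s took 1.85%, 1.38%, 0.996%, 0.614% and 0.747% of counts in wild types 1 to 5 and 1.20%, 1.29%, 0.686%, 0.791% and 0.603% in knockouts 1 to 5. It was thus higher in wild-type mice 1 to 3 than in mice 4 and 5, and its part in the chaperone values was not tested. The mean of 10 activity-regulated genes, such as Fos and Arc, was -0.04, 0.22, -0.13, 0.17 and -0.21 in wild types 1 to 5, high in mice 2 and 4, and -0.43, -0.34, -0.28, -0.11 and -0.34 in knockouts. Of these 10 genes 10 were below 0 (median -0.24) and 0 passed in edgeR with all libraries and no block. Npas4 passed with DESeq2, with the replicate block (alone or with the GC and length correction) and without wild-type mouse 1, and Fosb with DESeq2 and with the corrected block fit. Interneuron markers, 10 genes, were highest in wild-type mouse 1 (0.25), with the other 4 wild types at -0.10 to -0.02 and the knockouts at -0.22 to -0.005. The summed level of the choroid plexus markers was 31.2 to 38.3 CPM in wild types and 32.2 to 41.0 CPM in knockouts, most of it from Kl at 29.2 and 30.7 CPM.

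Across all 46 members the same mice stood out more weakly. The mean of all members was 0.02, 0.09, 0.07, -0.11 and -0.07 in wild types 1 to 5 and -0.09, -0.09, -0.09, 0 and -0.06 in knockouts 1 to 5. Wild-type mouse 2 was the highest of its group for 18 of 46 members and mouse 3 for 17, whereas mouse 4 was lowest for 18 and mouse 5 for 19. In the knockouts mouse 4 was highest for 19, mouse 5 for 12, and mouse 2 was lowest for 16. Such counts were not made over all genes, so here and for the ER genes they only describe the listed genes.

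**Figure D4:**
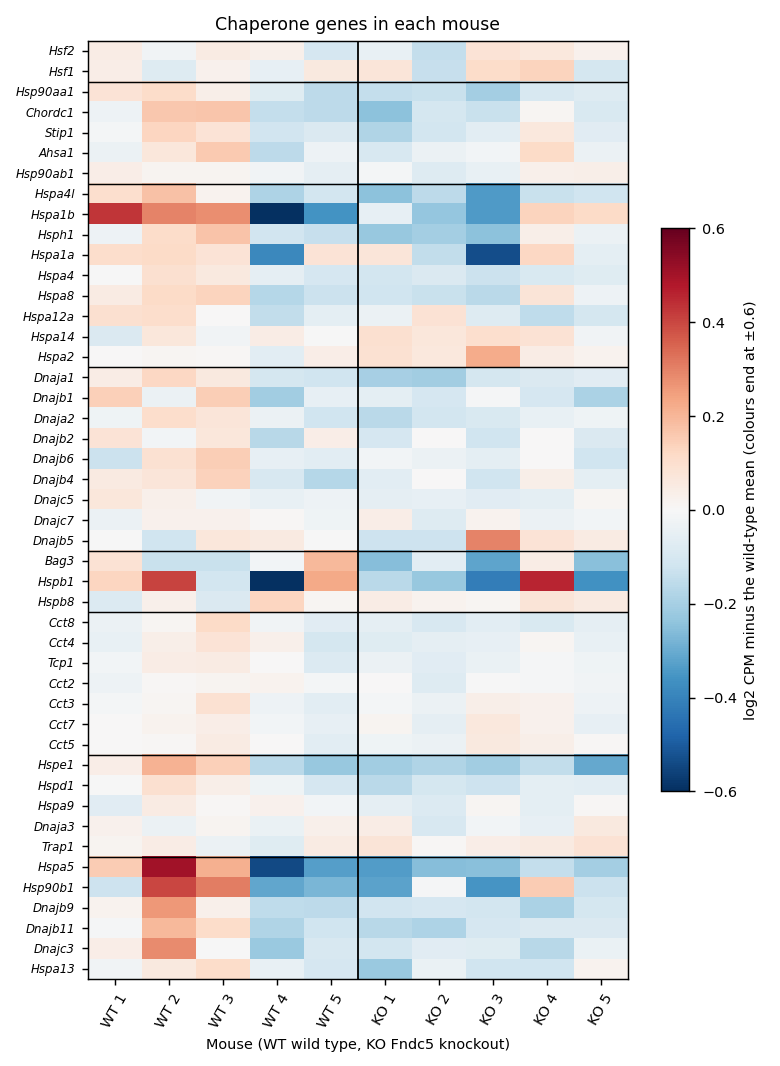
Log2 CPM minus the gene's wild-type mean for the 46 members (rows, grouped by class) in each of the 10 mice (columns, 5 wild types left of the line and 5 knockouts right of it), with colours that end at ±0.6. Red fields gather in wild-type mice 2 and 3 for ER genes, Hspe1, Hsph1 and Hspa8, and the rows of the CCT subunits are nearly white.

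The classes differed in how much they varied among mice of a genotype. For each gene the SD within genotypes on the log2 scale, pooled over both genotypes, was ranked among 500 genes of like level. The genotypes were not alike in spread. The mean of the 6 ER chaperones had an SD of 0.22 in wild types and 0.05 in knockouts, and that of the 19 other ER genes 0.17 and 0.04. In the HSF and small heat shock protein classes the knockouts had the larger SD. The ER chaperones had a median percentile of 90.1, with Hsp90b1 at 99.8 and Hspa5 at 99.4, and the 19 other ER genes had 93.0, with 12 of 19 above 90. The cytosolic HSP70 class had 89.0, with Hspa1b at 99.4, Hsph1 at 97.0 and Hspa8 at 96.2, and the HSP90 class had 84.6. At the quiet end the CCT subunits had a median of 17.0 and a highest value of 34.4, and the mitochondrial chaperones had 25.0. All 46 members had a median of 66.0. Genes of a class were measured in the same 10 libraries, so these percentiles are given without a test.

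**Figure D5:**
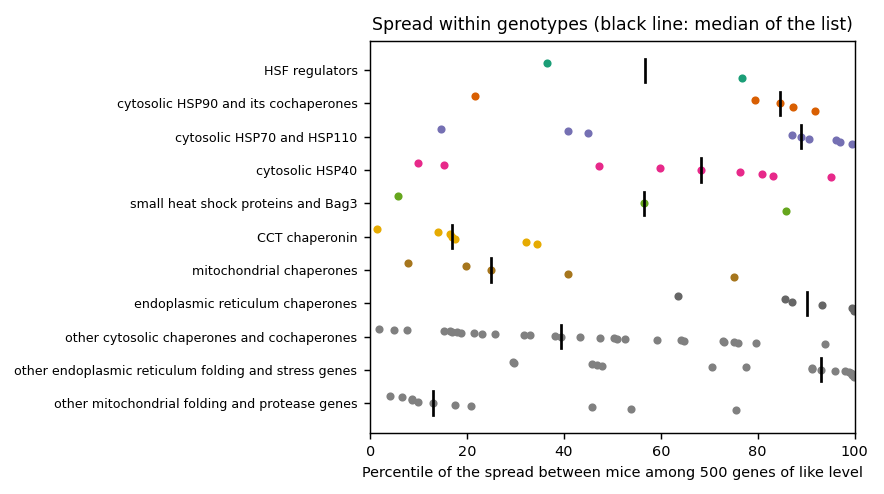
Percentile (x axis) of each gene's spread between mice of a genotype, pooled over both genotypes, among 500 genes of like level. The 8 classes and 3 lists of other chaperone network genes are shown, with a black line at each list's median. ER genes crowd to the right (medians 90.1 and 93.0), and CCT subunits and mitochondrial genes lie to the left (medians 17.0, 25.0 and 13.0).

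The classical targets of HSF1 were compared as 13 of the members, a list chosen with earlier results of these data known. Of these, 13 of 13 had log2 fold changes below 0 (median -0.13), against 49.3% of all genes tested, and 0 passed. Without wild-type mouse 3, and likewise without knockout mouse 1, 12 of 13 were below 0. At an unadjusted edgeR p under 0.05, 4 were lower (Hsp90aa1, Dnaja1, Hspe1 and Hspd1), against 3.75% of all genes tested. The median was -0.09 without wild-type mouse 2, -0.16 without wild-type mouse 4 and -0.12 with upper-quartile scaling. The mean of these 13 genes was 0.07, 0.13, 0.09, -0.22 and -0.07 in wild types 1 to 5 and -0.15, -0.14, -0.21, 0.04 and -0.12 in knockouts 1 to 5. Wild-type mouse 4 had the lowest value of all, and knockout mouse 4 lay between the 3 higher and the 2 lower wild types. The 4 genes of this list that hold a 3-unit element in the promoters shown above were Hspe1 (-0.22), Hsph1 (-0.14), Chordc1 (-0.12) and Hspd1 (-0.11), and the other gene with such an element, Dnajb6, was at -0.05. Of the members with only the 2-unit form, Hspb8 (0.04) and Cct5 (0.01) were above 0 and the others below, among them Cct2 (-0.02). All 4 ER members with an ER element were below 0, at -0.29 (Hspa5), -0.15 (Hsp90b1), -0.13 (Dnajb11) and -0.10 (Dnajc3). Dnajb9, without a match, and Hspa13, without a promoter at hand, were likewise below 0, at -0.13 and -0.10. A link between the elements and the fold changes was not tested.

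The rest of the cytosolic and mitochondrial chaperone network had values on both sides of 0. Of 29 other cytosolic chaperones and cochaperones, among them Cdc37, the prefoldin subunits and Cct6a, 14 were below 0 and 15 above with a median of 0.003, and 0 passed in edgeR. At an unadjusted edgeR p under 0.05, 3 of the 29 were lower, against 3.75% of all genes tested. They were Sugt1, an HSP90 cochaperone, at -0.13, the prefoldin subunit Vbp1 at -0.16, and Hspa1l at -0.55 with under 1 CPM in both groups. Vbp1 had 43.9, 44.2, 41.5, 34.2 and 33.1 CPM in wild types and 37.0, 35.7, 34.6, 33.7 and 35.0 CPM in knockouts, again with wild-type mice 1 to 3 above every knockout and mice 4 and 5 at their level. Hspa1l was named after its values were seen. Of 11 other mitochondrial folding and protease genes, 5 were below 0 with a median of 0.02, which turned to -0.01 with the GC and length correction, and 0 passed. Timm44, which anchors Hspa9 at the import channel, was at 0.07 (edgeR adjusted p 0.789), with all 5 knockouts above the highest wild type. The share of all genes separated in this direction is not given here, so the separation only describes this gene. The matrix protease Lonp1 was at 0.065.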

How the data were processed

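The authors deposited 1 table of raw counts per gene symbol for the 10 libraries. Per the labels' protocols, RNA was taken with Trizol and a column kit, and stranded poly(A) libraries were read as single ends of 75 bases. The tools were STAR 2.5.1b and Cufflinks 2.2.1 on mm10, per the submitters' processing notes, which assign no role to either. For the strand setting and for multiply mapped reads, the procedure is not given in the sources used here. Genes were filtered with filterByExpr (14867 kept of 24982 rows), scaled by TMM and compared with edgeR 4.0.16 (glmQLFit, glmQLFTest) in R 4.3.3, with Benjamini-Hochberg adjustment over all genes and a threshold of 0.05. CPM use TMM-scaled library sizes, log2 CPM a prior count of 2, and RPKM the union of GENCODE M21 exons. Alternatives were DESeq2 1.42.0, upper-quartile scaling, no low-count filter, 1 CPM in 5 libraries, limma 3.58.1 voom, and each library left out. Further ones were the mouse number as a block and a GC and length correction, alone and with the block. The correction used splines of 4 degrees of freedom in GC content and in the log2 length of the union of exons. The main edgeR fit was tested on simulated counts in which genes varied independently, with no shift shared among the genes of a mouse. The other fits, the spread ranks and the promoter search were not tested in this way. The members and lists were chosen with earlier results of these data known. Values of every mouse are given for Fndc5, for Hsf1, Hspa1a, Hspa1b, Hsp90aa1, Hsp90ab1, Hspa8 and Hspa5, and for the 2 members of lowest p and the 1 of highest level in each class, and other lists give up to 2 genes of lowest p. Depth limits precision for Hspb1, Hspa1a and Hspa1b, with 25 to 56, 119 to 245 and 146 to 411 counts per library.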

Additional observations from a re-analysis of the deposited data

Results flagged for a closer look

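In 5 of 120 groups of 5 mice that were checked (each member, and lists by their mean), 1 mouse lay far from the other 4 of its genotype, against about 6 expected by chance. Hspa1a was at 4.01 CPM in wild-type mouse 4, with the other wild types at 5.57 to 5.69 CPM. Hspb1 was at 1.89 CPM in knockout mouse 4, with the others at 1.00 to 1.21 CPM. Dnajb9 was at 27.2 CPM in knockout mouse 4 and the others at 28.7 to 29.0 CPM. In knockout mouse 5, Hspa14 was at 34.8 CPM, the others at 37.0 to 37.9 CPM, and Dnajc5 was at 393 CPM, the others at 372 to 377 CPM.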

How the results depend on the processing

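The count of members past the threshold was 0 in all 18 alternatives, and the smallest adjusted p of a member was 0.257 (Hspa4l, with the replicate block). The members' median ranged from -0.095 to -0.038 with single mice left out and was -0.046 with the GC and length correction. Over all genes 1 passed (Fndc5). DESeq2 gave 3, the replicate block 8, and the GC and length correction with the replicate block 9, where the cause was not tested. With single mice left out the count ranged from 1 to 3, with 3 without wild-type mouse 1 (Fndc5, Gabra2 and Npas4) and 2 without knockout mouse 2 (Fndc5 and Rab3c). With the replicate block 12 members were lower at an unadjusted p under 0.05 in place of 7, while the share over all genes went from 3.75% to 6.1%. Same-numbered mice had correlations of 0.209, 0.204, 0.108, 0.00901 and 0.0282 between their deviations. By a rule chosen here, the numbers were to count as pairs only if every pair was above 0.1, and 2 of the 5 were not. The library names alternate wild type and knockout of the same number, and the labels name no shared litter. Each library was also compared with the 5 of the other genotype. As a hint from the data, 6 of 10 libraries correlated best with their own number. The sign of 12 of 46 members turned in at least 1 alternative. The median of the HSF pair was 0.007, or 0.049 with the GC and length correction and 0.048 with the block added. GC content was that of the longest transcript. The lowest counts, those of Hspb1, limit precision most.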
